A study of Ulmus minor with 54 samples.

Results

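The transcripts described here are 103 assembled sequences from the field elm (Ulmus minor) that were higher in leaves with feeding beetle larvae after 24 h and stayed near the level of leaves without larvae after 1 and 6 h. They were chosen by their measured values, from 237477 deposited sequences, of which 29546 lay in the range of levels considered. A level is given in CPM, the reads of a transcript relative to the total of its library, after the libraries were scaled to each other with edgeR's TMM method. A transcript entered when its median over the 18 libraries of untreated leaves was 2 to 300 CPM. A log2 ratio of 2 groups was taken from their median CPM, each with 0.5 CPM added. Both feeding ratios at 24 h had to be at least 1, all 4 feeding ratios at 1 and 6 h had to lie within 0.5 of 0, and the ratio of leaves with simulated eggs to untreated leaves at 1 h had to lie within 0.8 of 0. A limit of 200 transcripts was not reached, so all 103 that passed were kept. The identifiers come without gene names, so no function can be given to any of them.

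The study asked how insect eggs on a leaf alter its later response to larvae. It used clonal wild-type trees of 15 to 19 weeks, raised from an in vitro culture and kept in a greenhouse. Simulated eggs were a strip of epidermis of 1.5 cm scratched off the leaf and covered with oviduct secretion of the elm leaf beetle, whereas control leaves were neither scratched nor given secretion. Wound and secretion therefore cannot be told apart in any comparison of leaves with and without simulated eggs. In the priming set, leaves with simulated eggs (P) and untreated leaves (C) were harvested after 1, 6 and 24 h. In the triggering set, larvae were placed 7 days after the start, 5 newly hatched ones on each fed leaf, and leaves were harvested 1, 6 and 24 h later. Its 4 treatments were simulated eggs and then larvae (PT), larvae alone (CT), simulated eggs alone (PC) and neither (CC). Every treatment at every hour was sequenced in 3 libraries, 18 groups in all. Whether replicates are separate trees is not stated, and p-values then cover only the spread between these samples, which may be partly technical.

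Leaves chewed by insects make a defence response in which jasmonates, hormones formed from membrane lipids after wounding, switch on many genes, and compounds in the insect's mouth secretion can alter that response. Some parts of it appear within the first hours, others only later. Eggs laid on a leaf are known in several plants, elm among them, to change the response to the larvae that hatch from them. Many leaf transcripts also follow a daily rhythm set by light and the plant's clock, which makes the hour of harvest part of any such comparison.

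Depth was 28916592 to 93878963 reads per library in 53 of the 54 libraries. Replicate 1 of CT at 24 h stood apart, with 14667334 reads and 62026 sequences with at least 1 read, where the others had 176736 to 221423. Its 10 most abundant sequences took 80.3% of its reads, where they took 5.68% to 58.5% elsewhere. The choice of members left it out, and so did the fits below, which leaves 2 libraries of CT at 24 h. All 103 transcripts had reads in each of the 53 other libraries, including every library from leaves that never carried larvae. Leaf and larval RNA were not separated in the reads. These are bulk leaf samples, so a change in the number of cells of a type and a change in RNA per cell cannot be told apart.

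Of the 29546 transcripts in the level range, 1175 had both feeding ratios at 24 h of at least 1. Most of these also differed earlier, since 1034 had a ratio at 6 h outside the limit of 0.5 and 680 a ratio at 1 h outside it. The limits on the early ratios left 104, and the limit on simulated eggs at 1 h removed 1 more. The 3 members nearest the threshold had smaller 24 h ratios of 1.01, 1.00 and 1.00, and the 3 transcripts just below it had 0.997, 0.992 and 0.992. Among the 17570 transcripts that kept the early limits, 215 passed the threshold at 24 h in CT over CC but not in PT over PC, and 62 passed it in PT over PC but not in CT over CC.

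In untreated leaves the members were of moderate abundance, with a median of 6.67 CPM and a range of 2.05 to 125 CPM. Of the 103 identifiers, 45 were scaffolds, or 43.7%, against 40.6% of the transcripts in the level range and 8.76% of all sequences. The share of scaffolds was thus close to that of other transcripts of this abundance.

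The median level of the 103 transcripts was 13.1, 15.0 and 16.5 CPM in the 3 PT libraries at 24 h and 19.9 and 14.4 CPM in the 2 CT libraries. In unfed leaves of that hour the PC libraries stood at 5.58, 4.68 and 5.61 CPM and the CC libraries at 6.70, 5.50 and 6.30 CPM. Every fed library at 24 h lay above every other library of the triggering set. The choice of members favours this order among the libraries of 24 h. It did not directly compare fed leaves of 24 h with the earlier hours. However, it required high fed levels at 24 h relative to unfed leaves. It also limited the feeding ratios at 1 and 6 h, so the order across hours is not independent of the choice either. At 6 h the median was 7.58 ± 0.526 CPM in PT and 8.29 ± 0.867 CPM in CT, against 6.02 ± 0.278 CPM in PC and 6.19 ± 0.417 CPM in CC (SD, n = 3 each). At 1 h it was 5.04 ± 0.557 CPM in PT and 5.04 ± 0.502 CPM in CT, against 5.71 ± 0.848 CPM in PC and 4.80 ± 0.269 CPM in CC (SD, n = 3 each).

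**Figure D1:**
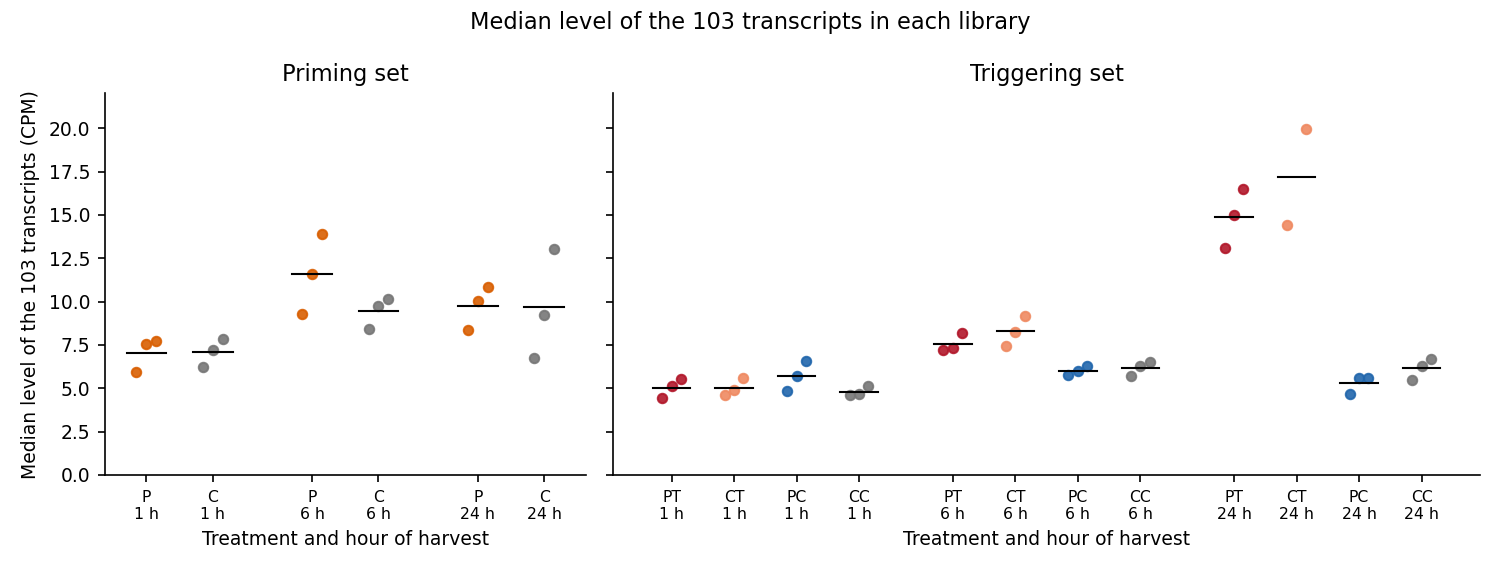
Median level (CPM, y axis) of the 103 transcripts in each library, by treatment and hour of harvest (x axis), in the priming set (left) and the triggering set (right). Points are libraries and bars are group means; the fed groups PT and CT at 24 h lie between 13.1 and 19.9 CPM, above the other libraries of their set, and the priming set shows levels of up to 13.9 CPM without any larvae.

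The feeding ratios that chose the members are given as a description. At 24 h the log2 ratio of PT over PC had a median of 1.24 (range 1.00 to 2.53) and that of CT over CC a median of 1.38 (range 1.02 to 2.90), beside medians of -0.10 and -0.12 over the level range. The ratio of CT over CC was the larger in 64 members and that of PT over PC in 39. Within the limits set for 6 h, most ratios were above 0, namely 88 of 103 in PT over PC (median 0.24) and 94 of 103 in CT over CC (median 0.32). At 1 h they were above 0 in 26 of 103 in PT over PC (median -0.16) and in 54 of 103 in CT over CC (median 0.02). The upper quartile of the 6 h ratios was 0.35 in PT over PC and 0.41 in CT over CC, where the choice allowed at most 0.5. The largest were 0.493 and 0.495, so members reached close to that limit.

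edgeR's quasi-likelihood test, with p-values adjusted by Benjamini-Hochberg over all 156137 transcripts tested, called 96 of the 103 members higher in PT than in PC at 24 h, where 6.08% of all transcripts were called higher. It called 91 higher in CT than in CC, where 5.07% of all were called higher, and 90 in both comparisons. The same contrasts chose the members, so these counts say nothing further about them. Without replicate 2 of CT at 24 h, 60 of the 103 were called in CT against CC, with a single CT library left that is assumed to vary like the other groups. In 101 of the 103 every PT library lay above every PC library at 24 h, and in 101 every CT library lay above every CC library, against 18.8% and 21.1% of the level range, which again follows from the choice. The level in CT replicate 2 was above that in CT replicate 3 for 94 members.

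**Figure D2:**
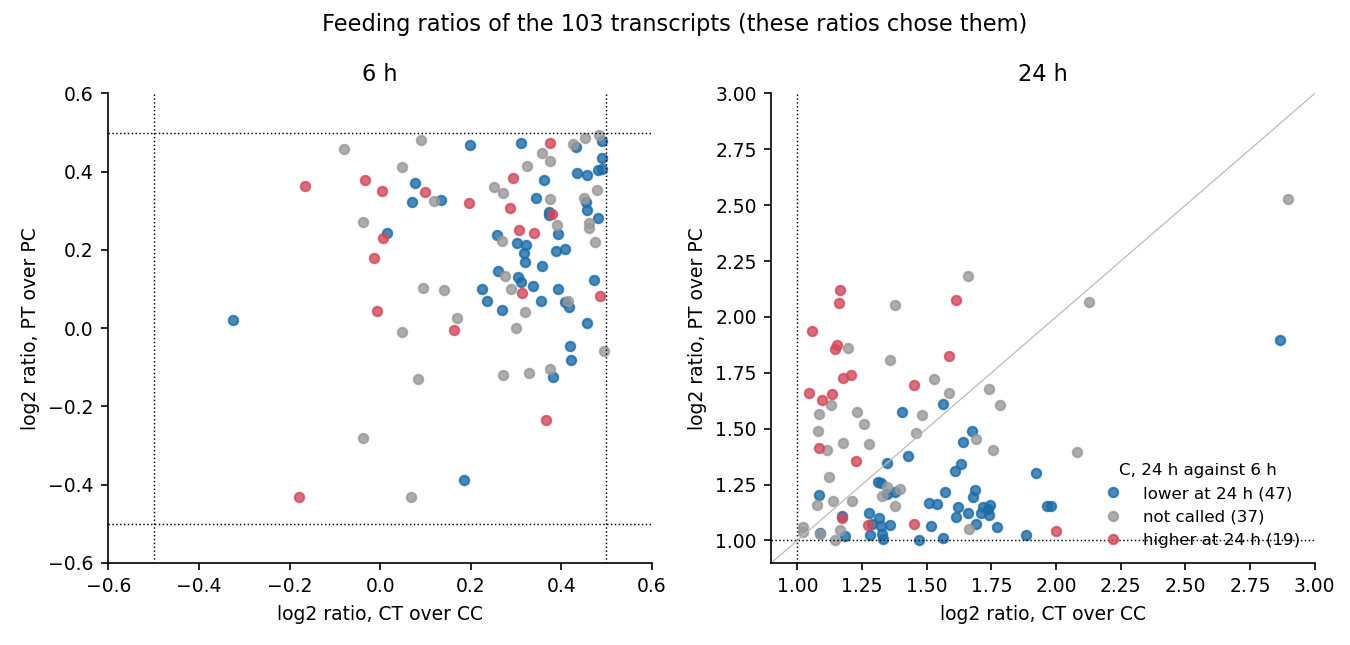
Log2 ratio of PT over PC (y axis) against that of CT over CC (x axis) for the 103 transcripts at 6 h (left) and 24 h (right). Dotted lines are the limits that chose the members, the grey line marks equal ratios, and colours give the call of each transcript in C at 24 h against 6 h; at 24 h 64 members lie below the line of equal ratios and 39 above it.

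C96204 had the highest smaller ratio at 24 h. Its level was 32.6, 18.9 and 16.5 CPM in PT and 33.1 and 8.46 CPM in CT, against 6.09, 2.86 and 2.51 CPM in PC and 2.04, 2.36 and 5.13 CPM in CC. The fed and unfed libraries did not overlap, but the 2 CT libraries lay far apart. The log2 fold change was 2.55 ± 0.53 (SE) in PT against PC, which edgeR's quasi-likelihood test called (Benjamini-Hochberg adjusted p = 0.00192). In CT against CC it was 2.73 ± 0.57 (SE), with an adjusted p of 0.00226 by the same edgeR test. Without CT replicate 2 the change in CT against CC was 1.52 and was no longer called (edgeR adjusted p = 0.239). In the priming set at 24 h the transcript was variable in P, at 20.99, 6.77 and 13.1 CPM, and stood at 4.90, 5.96 and 5.98 CPM in C. Every P library thus lay above every C library. The log2 fold change was 1.28 ± 0.39 (SE), which edgeR's test did not call (adjusted p = 0.430).

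scaffold12945, second by the same ratio, was far steadier. It stood at 12.6, 11.9 and 10.1 CPM in PT and 14.4 and 10.3 CPM in CT at 24 h, against 1.82, 2.45 and 2.94 CPM in PC and 2.84, 1.99 and 2.44 CPM in CC. Both fed groups lay well above both unfed ones, and PT and CT overlapped. Its log2 fold change was 2.26 ± 0.29 (SE) in PT against PC and 2.37 ± 0.31 (SE) in CT against CC. At 6 h it was still at 2.25, 2.22 and 1.19 CPM in PT and 1.91, 2.43 and 1.73 CPM in CT, against 1.86, 1.76 and 1.59 CPM in PC and 2.18, 0.883 and 1.34 CPM in CC. The groups of that hour overlapped, as the limits on the early ratios favour.

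**Figure D3:**
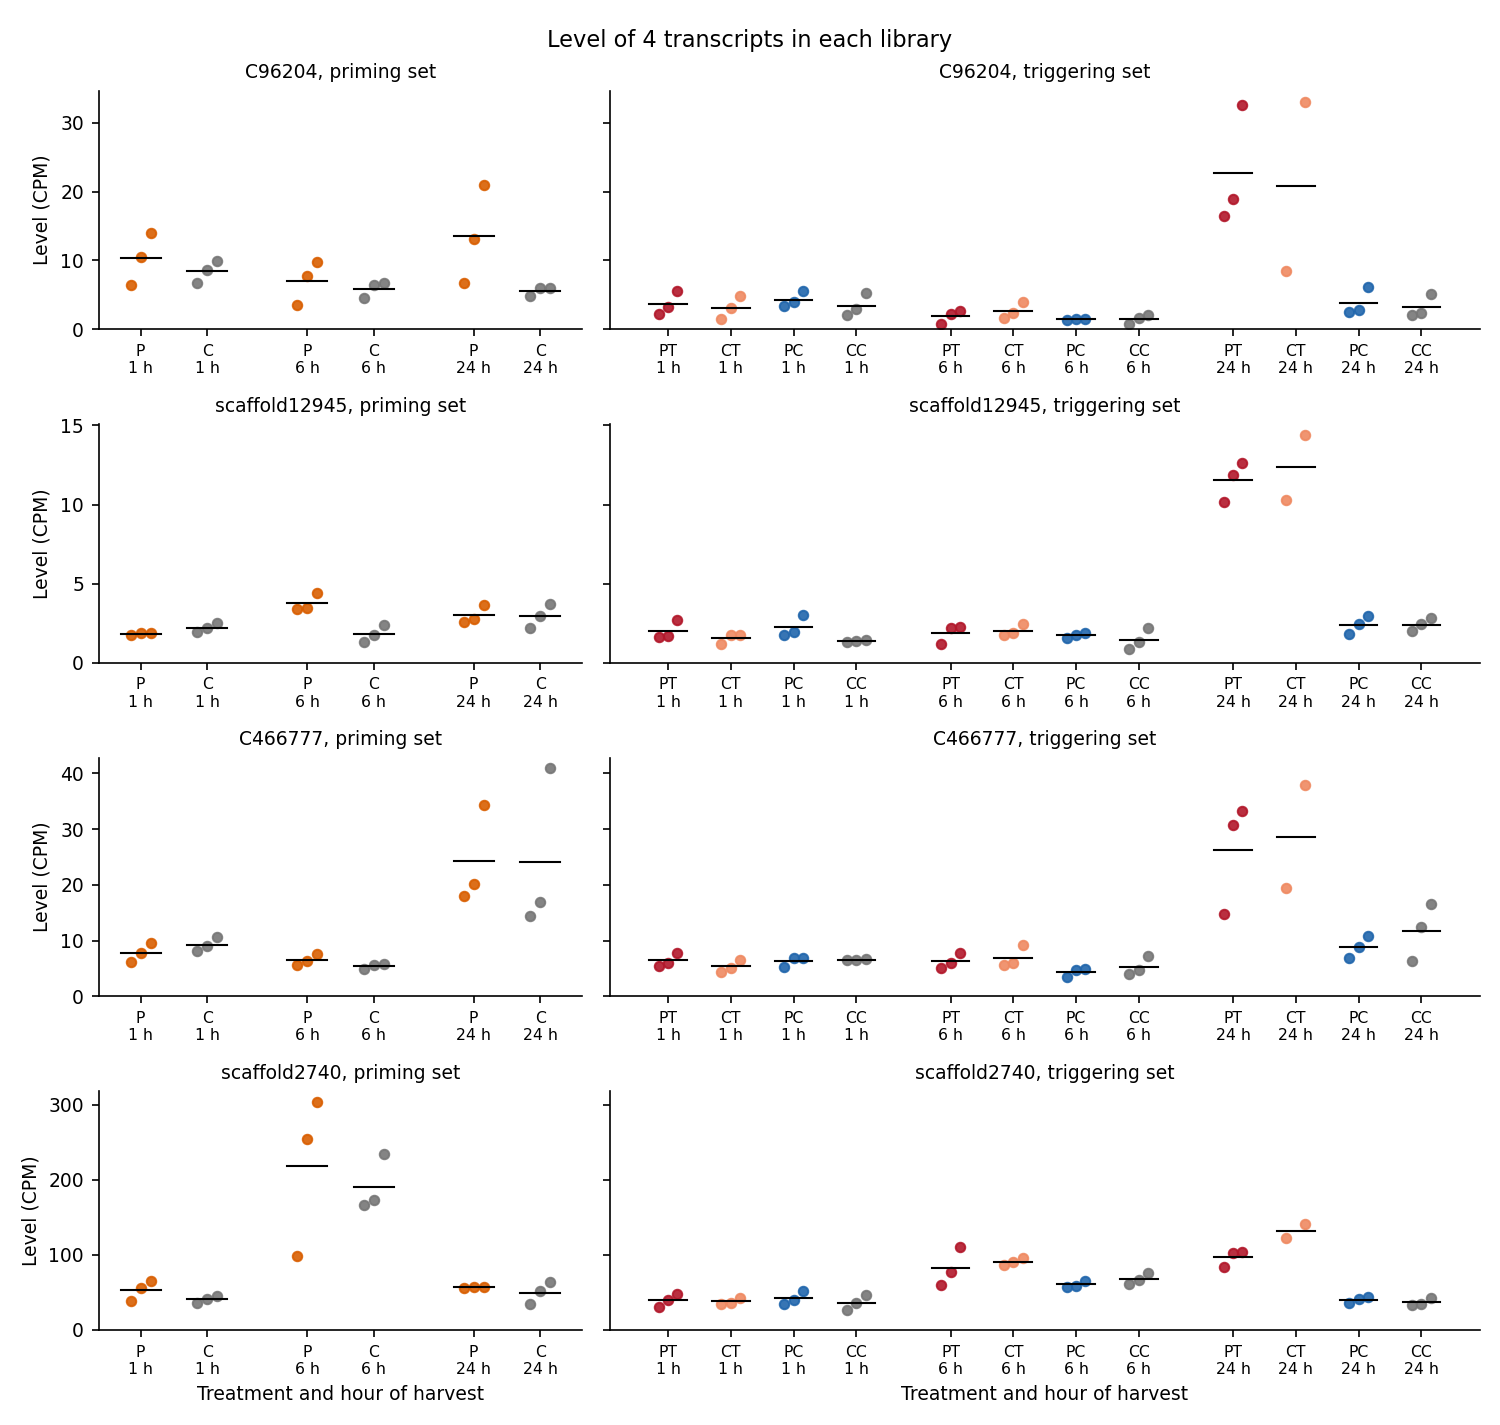
Level (CPM, y axis) of 4 of the transcripts in each library, by treatment and hour of harvest (x axis), in the priming set (left) and the triggering set (right); points are libraries and bars are group means. C96204 and scaffold12945 reached their highest levels in fed leaves at 24 h, C466777 was also high at 24 h in P and C, and scaffold2740 reached its highest levels at 6 h in P and C.

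Replicate 1 of CT at 24 h took no part in the choice and gives a view of the members outside it, although the CC libraries it is set against were used. With this library scaled together with the other 53, 63 of the 103 members (61.2%) lay above every CC library of 24 h, against 15.2% of the transcripts in the level range. The median log2 ratio to the CC median was 0.59 over the members and -1.33 over the level range. The ratio was at least 1 in 35 members, against 6.24% of the level range. Below every CC library lay 21 members, against 76% of the level range. The members' median was 40 reads in this library and 3 of them had 0 reads, so many of these values are imprecise. scaffold12945 stood at 12.3 CPM there, as high as in the other fed libraries, whereas C96204 stood at 6.27 CPM.

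The response to simulated eggs without larvae was not used in the choice at 6 and 24 h. At 6 h no member was called in P against C by edgeR's quasi-likelihood test, where 0.0292% of all 126737 transcripts were called higher and none lower. At an unadjusted p of at most 0.05 there were 7 members, all higher in P, a share near the 6.09% of all transcripts at that p in either direction. DESeq2 called 1, scaffold12945, which was at 4.43, 3.44 and 3.42 CPM in P and 2.38, 1.29 and 1.73 CPM in C. Its log2 fold change was 1.07 ± 0.25 (SE) by edgeR, with an adjusted p of 0.266, and 1.10 ± 0.26 (SE) by DESeq2, with an adjusted p of 0.0116. All P libraries lay above all C libraries for this transcript.

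The members leaned upward in P at 6 h as a group. The fitted log2 change was above 0 in 96 of 103 (93.2%), against 48.9% of all transcripts tested and 52.4% of the level range, with a median of 0.24 (range -0.18 to 1.31) beside -0.01 over all transcripts. Every P library lay above every C library in 13 members and below in 0, against 9.02% and 5.35% of the level range. The lean rests in part on 1 library: without P replicate 1 it was above 0 in 60 members, with a median of 0.07. The summed level of the 103 was 5458, 4756 and 2774 CPM in P at 6 h and 3443, 3393 and 4320 CPM in C, so the groups overlapped. The 10 most abundant sequences held 8.46%, 7.72% and 43.2% of reads in those P libraries and 32.7%, 12.4% and 13.7% in those C libraries. P replicate 3, the lowest in the summed level, was the one with the high share. Without it 95 members were above 0, with a median of 0.39, and 27 had an unadjusted p of at most 0.05. None was called by edgeR. At 1 h, where the choice limited the size of the ratio but not its sign, the ratio of group medians was above 0 in 82 of 103 members. Its median was 0.25, against -0.03 over the level range, where 45% were above 0. The median level of the 103 at 1 h was 5.93, 7.70 and 7.54 CPM in P and 6.22, 7.21 and 7.84 CPM in C, so the groups overlapped.

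At 24 h after simulated eggs, edgeR's quasi-likelihood test called 0 members in P against C, where 0.0229% of all transcripts were called higher. DESeq2 called 0 as well, and 4 members had an unadjusted p of at most 0.05, where 5.45% of all transcripts did. The change was above 0 in 64 of 103 (62.1%), against 50.1% of all transcripts, with a median of 0.05. P lay above C in every library for 2 members and below it for 2, against 2.51% and 3.15% of the level range. The direction at 24 h rests on single C libraries: without C replicate 1 the change was above 0 in 28 members (median -0.13), and without C replicate 2 in 80 (median 0.17), with 3 and 12 members at an unadjusted p of at most 0.05. Without P replicate 1 it was 1 member, without C replicate 3 it was 2 and without P replicate 2 it was 8. The difference between the hours was not tested.

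In leaves without any stimulus the members differed strongly by hour. In C, edgeR's quasi-likelihood test called 47 of the 103 lower at 24 h than at 6 h (45.6%), against 6.72% of all transcripts tested and 12.4% of the level range. It called 19 higher at 24 h (18.4%), against 6.03% of all and 10.7% of the level range, and 37 were not called. Every C library of 24 h lay below every C library of 6 h in 48 members and above in 21, against 21.3% and 21.9% of the level range. The choice used these libraries for the overall level alone. The median log2 fold change was -0.46 over the members (range -2.05 to 2.75) and 0.00 over all transcripts. The labels give no clock time, so the hour after the start and the time of day cannot be told apart.

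The count of lower calls was 31 without C replicate 1 of 24 h and 32 to 45 without any other C library of the 2 hours. The count of higher calls was less steady, at 8 without C replicate 2 of 6 h, 9 without C replicate 2 of 24 h and 10 without C replicate 3 of 6 h. It also depends on how the members are chosen: with 2 CPM added in the ratios in place of 0.5, 29 of 104 members were lower and 22 higher. With the outlying CT library kept in the choice, 44 of 79 were lower and 8 higher.

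scaffold2740 and C320563 were the 2 lower members with the smallest p. scaffold2740 stood at 34.4, 51.8 and 63.3 CPM in C at 24 h and at 166, 174 and 234 CPM in C at 6 h, with no overlap. The log2 fold change was -1.96 ± 0.32 (SE), and the Benjamini-Hochberg adjusted p of edgeR was 0.00123. C320563 stood at 4.56, 6.65 and 7.08 CPM in C at 24 h and at 14.3, 17.8 and 22.3 CPM at 6 h. Its log2 fold change was -1.60 ± 0.24 (SE), with an adjusted p of 7.20e-04 by the same edgeR test. At 1 h both were low again, at 36.4, 45.4 and 40.9 CPM for scaffold2740 and 4.27, 5.62 and 4.29 CPM for C320563.

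C466777 and C274711 were the 2 higher members with the smallest p. C466777 stood at 14.4, 40.96 and 16.9 CPM in C at 24 h and at 5.56, 5.87 and 4.95 CPM at 6 h, a log2 fold change of 2.09 ± 0.33 (SE) with an edgeR adjusted p of 8.65e-04. Its libraries of 24 h all lay above those of 6 h, but replicate 2 was more than the other two combined. C274711 stood at 9.69, 16.3 and 7.51 CPM in C at 24 h and at 0.946, 1.65 and 2.20 CPM at 6 h, a log2 fold change of 2.75 ± 0.47 (SE) with an edgeR adjusted p of 0.00156. All 4 named changes between 6 and 24 h in C kept their direction and call in every alternative tried. In the feeding comparisons at 24 h, edgeR's test called C274711 in PT against PC (adjusted p = 0.0367). It did not call C274711 in CT against CC (edgeR adjusted p = 0.104).

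The comparison of 24 h with 6 h was repeated in P, whose libraries of these hours had no part in the choice; it was added after the data had been seen. There 51 members were called lower at 24 h (49.5%), against 8.11% of all transcripts and 15.1% of the level range. 10 were called higher (9.71%), against 7.94% of all and 11.9% of the level range, so the share of higher calls was below that of the level range. Every P library of 24 h lay below every P library of 6 h in 49 members and above in 21, against 22.4% and 20.4% of the level range. Of the 47 called lower in C, 46 were called lower in P, which is 97.9% of the calls in C and 90.2% of those in P. In the level range the shared lower calls made up 78.7% of those in C and 64.6% of those in P. Of the 19 called higher in C, 9 were called higher in P and none lower, which is 47.4% of the calls in C and 90.0% of those in P. In the level range the shared higher calls made up 70.5% of those in C and 63.4% of those in P, so the share of C was lower in the members. All 47 and all 19 had the same sign in P, as did 99.3% and 99.4% of such calls in the level range.

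scaffold2740 was at 57.0, 56.1 and 56.7 CPM in P at 24 h and at 304, 255 and 98.1 CPM at 6 h. Its log2 fold change there was -1.97 ± 0.32 (SE), close to the one in C. C466777 was at 20.2, 34.4 and 18.0 CPM in P at 24 h and at 5.55, 6.26 and 7.66 CPM at 6 h, a change of 1.87 ± 0.32 (SE). In both transcripts the 2 hours did not overlap in P. Leaving out 1 library at a time gave 42 to 49 lower calls and 3 to 14 higher calls in P. The fewest higher calls came without P replicate 2 of 6 h (3) and P replicate 1 of 6 h (4), followed by P replicates 1 and 2 of 24 h (6 each).

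**Figure D4:**
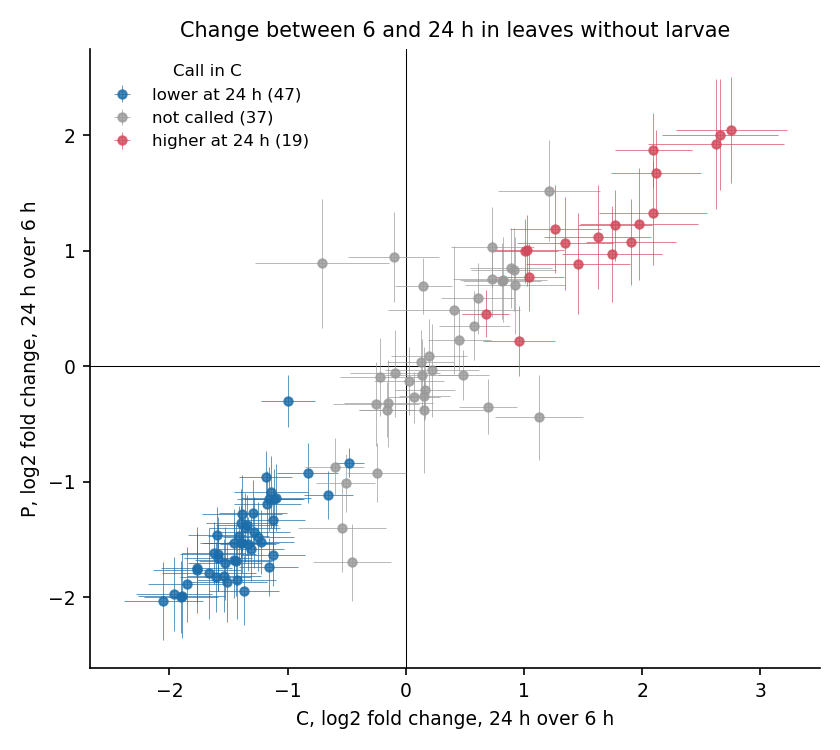
Log2 fold change of 24 h over 6 h in P (y axis) against the same change in C (x axis) for the 103 transcripts, with SEs as bars. Colours give the call in C; the 47 lower ones and the 19 higher ones all have the same sign in P.

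Against 1 h the untreated leaves of 24 h differed less. edgeR's quasi-likelihood test called 0 members in C at 24 h against C at 1 h, and 0% of all transcripts. At an unadjusted p of at most 0.05 there were 36 members, 35 of them higher at 24 h, where 7.23% of all transcripts reached it in either direction, and DESeq2 called C466777 and C487333 higher. The change was above 0 in 92 of 103 (89.3%), against 49.3% of the level range, with a median of 0.40 beside 0.00 over all transcripts. C at 1 h also entered the choice, through the limit on simulated eggs at 1 h. The median of the 103 over the C libraries of 24 h was 6.73, 13.04 and 9.24 CPM, against 6.22, 7.21 and 7.84 CPM at 1 h, so replicate 2 of 24 h stood high and the groups overlapped. Without that library 10 members had an unadjusted p of at most 0.05, and without C replicate 1 of 1 h 19 did.

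Split by their call in C at 24 h against 6 h, the members form 3 groups of different shape. The 47 lower ones were the more abundant, with a median of 12.04 CPM in untreated leaves, and included 19 scaffolds. The 19 higher ones had a median of 4.19 CPM with 6 scaffolds, and the 37 without a call had a median of 4.37 CPM with 20 scaffolds. The class rests on C at 6 and 24 h, so the levels in C are a description.

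The 47 lower members peaked at 6 h in the priming set. Their median level in P was 12.4 ± 2.18, 35.4 ± 14.1 and 13.4 ± 2.23 CPM at 1, 6 and 24 h, with single libraries at 46.4, 40.4 and 19.6 CPM at 6 h (SD, n = 3 each). In C it was 9.99 ± 1.03, 30.3 ± 3.78 and 12.7 ± 2.55 CPM at the same hours (SD, n = 3 each). Every library of 6 h lay above every library of the other hours in the same treatment. In the untreated and egg-treated leaves of the triggering set, 7 days on, the same shape was present but shallower. The median was 10.3 ± 2.02, 14.5 ± 0.820 and 8.91 ± 0.765 CPM at 1, 6 and 24 h in PC, and 9.09 ± 1.49, 15.7 ± 1.95 and 8.81 ± 1.01 CPM in CC (SD, n = 3 each). The CC level at 6 h was below the C level in all 47, by a median of -0.98 on the log2 scale. It was below in 91 of all 103 members (median -0.73), whereas 46.4% of the level range stood higher in CC (median -0.04). The 47 were set apart by a C level higher at 6 h than at 24 h, which favours this difference and the shallower shape.

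In unfed leaves of the triggering set, 46 of the 47 were higher at 6 h than at 1 h in PC (median log2 ratio 0.43) and all 47 in CC (0.71), beside medians of -0.05 and -0.08 over the level range. All 47 were lower at 24 h than at 6 h in PC (-0.59) and in CC (-0.64). Unfed leaves of 24 h are the denominator of the feeding ratio at 24 h, so a low level there favours membership. Unfed leaves of 6 h are the denominator of the limited ratio at 6 h, so a high level there favours membership too. Neither the rise from 1 to 6 h nor the fall from 6 to 24 h is thus independent of the choice.

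In fed leaves the 47 were not lower at 24 h than at 6 h. Their median was 9.22 ± 1.32, 18.6 ± 5.45 and 21.3 ± 3.87 CPM at 1, 6 and 24 h in PT (SD, n = 3 each). In CT it was 10.4 ± 0.444 and 18.1 ± 1.53 CPM at 1 and 6 h (SD, n = 3 each) and 25.4 ± 1.20 CPM at 24 h (SD, n = 2). By group medians, all 47 were higher at 24 h than at 6 h in PT, by a median log2 ratio of 0.36, and in CT, by 0.48. The PT libraries overlapped, with medians over the 47 of 15.4, 15.6 and 24.94 CPM at 6 h and 17.2, 24.93 and 21.7 CPM at 24 h. The CT libraries did not, at 19.8, 17.9 and 16.7 CPM at 6 h and 26.3 and 24.6 CPM at 24 h. The limits on the feeding ratios at 6 and 24 h fix that the log2 ratio of 24 h to 6 h is larger in fed than in unfed leaves in each member, by at least 0.5, so this contrast is no finding. scaffold2740 is an example, at 83.4, 104 and 103 CPM in PT and 141 and 122 CPM in CT at 24 h, against 41.3, 35.4 and 43.6 CPM in PC and 34.2, 42.9 and 32.9 CPM in CC. At 6 h it was at 60.0, 77.7 and 111 CPM in PT and 95.6, 90.8 and 86.1 CPM in CT, against 59.1, 57.8 and 65.9 CPM in PC and 75.9, 66.1 and 61.6 CPM in CC. Fed and unfed libraries lay apart at 24 h and were close or overlapped at 6 h.

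**Figure D5:**
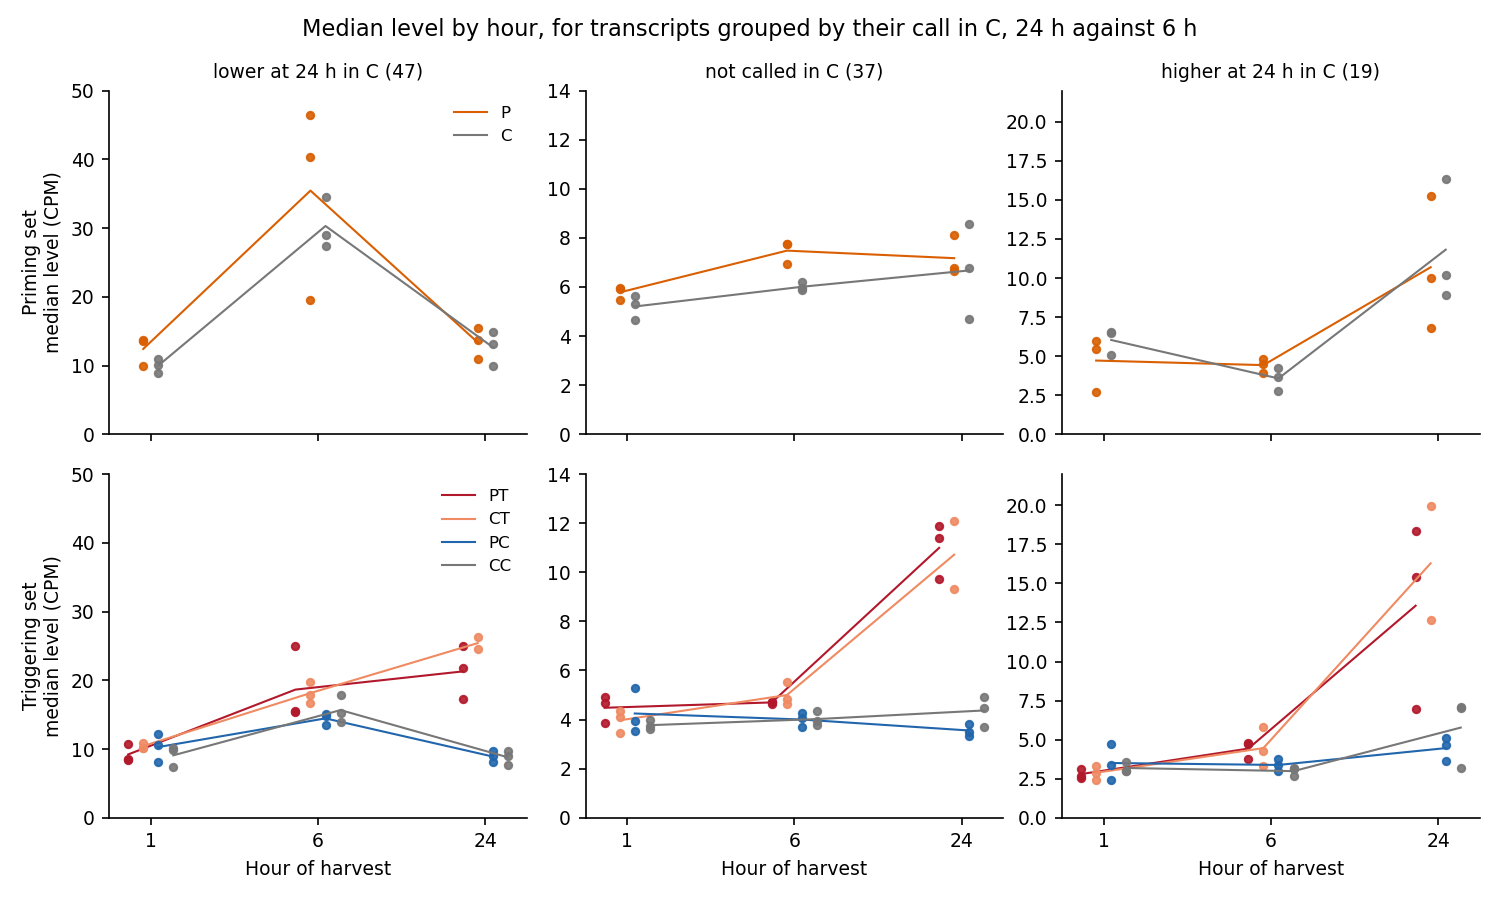
Median level (CPM, y axis, with a scale of its own in each column) by hour of harvest (x axis) for the members called lower, not called and called higher in C at 24 h against 6 h (columns), in the priming set (top) and the triggering set (bottom). Points are libraries and lines join group means. Without larvae the 47 lower members peak at 6 h. With larvae the group means of every class are higher at 24 h than at 6 h. That the change from 6 to 24 h is larger with than without larvae is fixed by the choice for each member.

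The 19 higher members had another course. Their median level was 13.6 ± 5.91 CPM in PT (SD, n = 3) and 16.3 ± 5.16 CPM in CT (SD, n = 2) at 24 h, against 4.46 ± 0.737 CPM in PC and 5.78 ± 2.22 CPM in CC (SD, n = 3 each). At 6 h it was 4.43 ± 0.597 CPM in PT and 4.46 ± 1.25 CPM in CT, against 3.38 ± 0.406 CPM in PC and 2.99 ± 0.291 CPM in CC (SD, n = 3 each). All 19 were higher at 24 h than at 6 h in fed leaves, by a median log2 ratio of 2.05 in PT and 2.20 in CT. In unfed leaves 19 of 19 were higher at 24 h in PC (0.45) and 18 of 19 in CC (1.06), and that these ratios are below the fed ones is again fixed by the choice. The spread was wide, since PT replicate 1 had a median of 6.96 CPM at 24 h and CC replicates 1 and 3 had 7.07 and 7.05 CPM.

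The 37 without a call had a similar median at both hours in unfed leaves, with single members going either way. At 24 h their median was 3.56 ± 0.255 CPM in PC, against 4.37 ± 0.616 CPM in CC (SD, n = 3 each). At 6 h it was 4.00 ± 0.276 CPM in PC, against 4.02 ± 0.304 CPM in CC (SD, n = 3 each). Higher at 24 h than at 6 h stood 17 of the 37 in PC (log2 ratios from -0.98 to 0.76) and 19 in CC (-0.85 to 1.31). In fed leaves the median was 10.99 ± 1.13 CPM in PT (SD, n = 3) and 10.7 ± 1.96 CPM in CT (SD, n = 2) at 24 h, and 4.70 ± 0.0444 CPM in PT and 5.00 ± 0.465 CPM in CT at 6 h (SD, n = 3 each). As a description of libraries that chose them, these 37 and the 19 higher members stood higher in fed leaves at 24 h than at 6 h by a larger median log2 ratio than the 47, at 1.21 in PT and 1.08 in CT for the 37.

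The feeding ratios of the 3 groups leaned to different sides. Among the 47 lower members the median log2 ratio at 24 h was 1.15 for PT over PC and 1.56 for CT over CC. Among the 19 higher members it was 1.70 for PT over PC and 1.17 for CT over CC. Among the 37 without a call it was 1.44 for PT over PC and 1.33 for CT over CC. In the 19, the log2 ratio of PC over CC at 24 h had a median of -0.54, with 17 members lower in PC. That of PT over CT had a median of -0.09, with 14 lower in PT. In the 47, PC over CC had a median of 0.04, with 20 lower in PC, and PT over CT one of -0.30, with all 47 lower in PT. All of these values come from libraries that chose the members.

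Set against the leaves of the priming set, the fed level of most of the 47 was within the range of untreated leaves. At 24 h the medians of PT and CT both stayed below the highest hour of C in 36 of the 47 and both exceeded it in 3. The 47 were set apart by a C level that was higher at 6 h than at 24 h. A high peak in C is thus part of their definition, so this count and its contrast with the other groups are a description. For the 19 higher members both medians exceeded the highest hour of C in 19 of 19, and for the 37 in 30. The single libraries of the 19 overlapped, however. Their median level was 8.92, 16.3 and 10.2 CPM in C at 24 h. In fed leaves of that hour it was 6.96, 15.4 and 18.4 CPM in PT and 19.9 and 12.6 CPM in CT. Within the triggering set all 103 stood higher at 24 h in PT than in PC at any hour, and in CT than in CC at any hour. Library by library, PT at 24 h lay above PC at 6 h without overlap in 91 members, and CT at 24 h above CC at 6 h in 101, against 27% and 28.2% of the level range. These libraries chose the members, so the counts are a description. The 2 sets were harvested 7 days apart, which cannot be told apart from other differences between them.

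No difference between fed leaves with and without simulated eggs passed the test. edgeR's quasi-likelihood test called 0 members in PT against CT at 24 h, and 0% of all transcripts tested. 14 members had an unadjusted p of at most 0.05, all lower in PT, where 3.46% of all transcripts reached it in either direction, and DESeq2 called 0. The fitted log2 change was below 0 in 92 of 103 (89.3%), with a median of -0.30 (range -0.69 to 0.57) beside 0.01 over all transcripts. Every PT library lay below both CT libraries in 38 members and above in 0, against 8.22% and 14.6% of the level range. All these libraries chose the members, and CT at 24 h had 2 of them, so the lean is a description. With the outlying CT library in the fit the change was above 0 in 37 members and the median was -0.10, beside 0.13 over all transcripts. Without CT replicate 2 the median was -0.14, and without PT replicate 1 it was -0.18, with 2 members at an unadjusted p of at most 0.05 in each case. Without PT replicate 3 there were 22.

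At 24 h, PC and CC did not differ beyond the test either. edgeR's quasi-likelihood test called 0 members and 0% of all transcripts, with 6 members at an unadjusted p of at most 0.05, all lower in PC, against 4.13% of all transcripts in either direction, and DESeq2 called 0. That number of members was 0 without CC replicate 1, 2 without PC replicate 2, 3 without PC replicate 3 and 14 without CC replicate 2. The median log2 change was -0.06, and PC lay above CC in every library for 3 members and below it for 8, against 4.86% and 3.33% of the level range. The interaction, the feeding response with simulated eggs minus that without, gave 0 calls among the members and 0% of all transcripts by the same edgeR test. 9 members had an unadjusted p of at most 0.05, all below 0, against 3.9% of all transcripts in either direction, and DESeq2 called 0. Leaving out 1 library at a time moved that number between 1 (without CC replicate 1, PC replicate 3 or PT replicate 1) and 15 (without CC replicate 2); it was 3 without CC replicate 3 or CT replicate 2, 4 without CT replicate 3 and 5 without PC replicate 1. The median interaction was -0.15 on the log2 scale and 0.00 with the outlying CT library in the fit. A p that misses the threshold does not show that leaves with and without simulated eggs responded alike.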

How the data were processed

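The authors deposited raw read counts of 237477 assembled sequences in 54 libraries, as whole numbers, and 0 columns were left out. Per the submitters' processing notes, CASAVA and Trimmomatic 0.33 were used. The sources used here name no assembly, aligner or counter and do not say if strand was used. Overlapping, antisense and closely related sequences may thus share reads, and a gene may be split over several sequences. Over 54 pairs of libraries of 1 group, chi-square per degree of freedom was at least 9.48, so none was deposited in duplicate within a group. Libraries of different groups were not compared in this way.

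The members and lists were chosen with earlier results of these data known. CPM were computed with edgeR 4.0.16 in R 4.3.3 (TMM on all rows, 53 libraries). Tests were edgeR's quasi-likelihood fits of the deposited counts, 1 mean per group, on the 18 libraries of the priming set (126737 transcripts) and 35 of the triggering set (156137), after filterByExpr (minimum count 10, minimum total 15). Benjamini-Hochberg adjustment was over all transcripts tested, with a threshold of 0.05. SEs are the log2 fold change over the square root of F. DESeq2 1.42.0, other scalings, filters and left-out libraries were alternatives. Named transcripts are the 2 with the highest smaller feeding ratio at 24 h and, for each other comparison, up to 2 called higher and 2 called lower with the smallest p and no overlap; those called by DESeq2 alone were named after their values were seen. The fits were tested on simulated data. In each comparison with 3 pairs, the deviations of at least 1 same-numbered pair correlated by no more than 0.0625, although other pairs reached 0.266. With 2 pairs, the correlations were 0.279 and 0.216 in PT against CT and 0.028 and -0.017 in CT against CC. No label says that a number marks a shared batch, so replicates were not paired.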

Additional observations from a re-analysis of the deposited data

Results flagged for a closer look

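Replicate 1 of CT at 24 h, a library outside the choice of members and outside the fits, held many of the members above the unfed leaves. In it 63 of the 103 transcripts lay above every CC library of 24 h, against 15.2% of the transcripts in the level range, and 21 lay below every one, against 76%. It was picked out as a signal in data that the comparisons do not use. The library had 14667334 reads with 80.3% of them on 10 sequences, and no explanation was tested.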

How the results depend on the processing

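The choice of members is sensitive to its settings. Of the 103, 66 were chosen again with the outlying CT library, 59 with 2 CPM added in the ratios, 52 with group means in place of medians, and 64 to 102 when 1 library was left out. Without 1 library of the compared groups, the members called in C at 24 h against 6 h ranged from 8 to 18 higher and from 31 to 45 lower, and in P from 3 to 14 higher and from 42 to 49 lower. In CT against CC at 24 h they ranged from 60 to 91 higher. In C, higher calls were 12 without the filter on low counts and 8 in the list chosen with the outlying library, and lower calls were 29 in the list chosen with 2 CPM. In P, higher calls were 6 and 20 in these 2 lists and lower calls 33 with 2 CPM. DESeq2 called 1 member higher in P against C at 6 h and 2 in C at 24 h against 1 h, where edgeR called 0. The cause of these shifts was not tested. With the replicate number as a block, 19 members were higher and 46 lower in C at 24 h against 6 h, and 13 higher and 51 lower in P; the block changed no other count by more than 1.5 times. The scarcest members have the fewest reads behind their values, which limits their precision.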
